A study of Drosophila melanogaster with 2 samples.

Results

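The large-subunit cytoplasmic ribosomal protein genes of Drosophila melanogaster were taken as every protein-coding gene whose symbol begins with RpL in the Ensembl annotation, which leaves out the mitochondrial mRpL genes. There were 54 such genes among 13945 protein-coding genes, and RefSeq describes all 54 as ribosomal proteins and 0 as mitochondrial. Binding near them was read from chromatin immunoprecipitation followed by sequencing (ChIP-seq) on whole embryos 0 to 12 hours old, sexes pooled, of a transgenic line in which E(spl)m5-HLH carries GFP at its C terminus. The 2 biological replicates, numbered 3 and 4, made up 1 group, so nothing was compared between conditions. Both samples are described in free text as input, although the assay title and the antibody label give an immunoprecipitation of E(spl)m5-HLH, and the values are given on that reading. The sources used here do not say where the insertion lies or what drives the fusion. In whole embryos, the share of cells in which a site is occupied and the occupancy per cell cannot be told apart.

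The large ribosomal subunit joins amino acids at its peptidyl transferase centre, passes the growing chain out through the exit tunnel and recruits translation factors with its stalk. Its protein genes are transcribed in nearly all growing cells, and in flies many of them start transcription within a run of pyrimidines (C and T). E(spl)m5-HLH belongs to the Enhancer of split repressors, basic helix-loop-helix proteins that act downstream of Notch, and such repressors are known to bind the E box CACGTG.

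The authors deposited 4 lists of peaks, with 30000 candidates from each replicate, 30000 from the pooled reads and 2487 thresholded peaks that passed their reproducibility procedure. Signal is the authors' own value per peak, on a scale that the sources do not give, and rank 1 is the highest signal in a list. The 2487 thresholded peaks were the 2487 strongest pooled candidates, with signals from 114 to 2284 and a median of 162. A gene is called bound here when the summit of a thresholded peak, its point of highest signal, lay within 1 kb of any of its annotated start sites. No peak list from an untagged line was used here.

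Of the 54 RpL genes, 40 were bound (74.1%), beside 11.9% of all protein-coding genes (1653 of 13945). The small-subunit genes, the RpS genes, stood close to them with 26 of 38 bound (68.4%). The mitochondrial ribosomal protein genes did not show such a share, with 6 of 47 mRpL genes (12.8%) and 5 of 26 mRpS genes (19.2%) bound. Of 15 genes for 60S assembly and nucleolar factors, 4 were bound (26.7%), namely Fib, Nopp140, Ns2 and eIF6. These shares were set side by side without a test. The shares for both cytoplasmic lists therefore lay far above that of all genes, while that of the mRpL genes lay next to it.

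**Figure D1:**
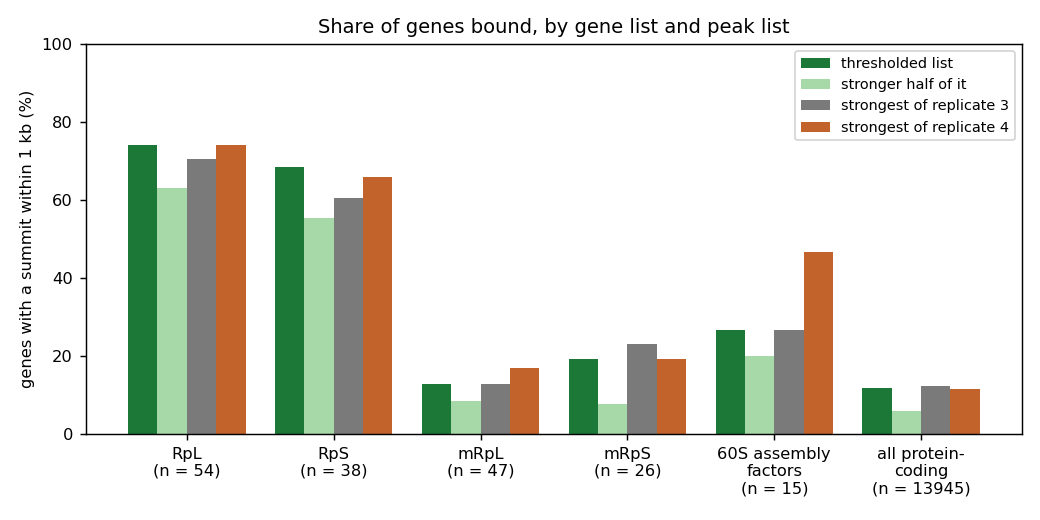
Share of genes (percent) that had a summit no more than 1 kb from a start site, by gene list, in the thresholded list, its stronger part of 1243 peaks, and the 2487 strongest candidates of each replicate. For the thresholded list the RpL bar stands at 74.1% and that for all protein-coding genes at 11.9%.

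Upstream sequence is shown for 3 of the 5 strongest bound RpL genes, because the summits lay inside these bases and no annotated exon covers them. Each line gives the 100 bases before the start site on the gene's strand, 5′ to 3′, from the RefSeq reference of the dm6 assembly. All letters are in lower case because none of the 6 motifs searched later occurs in them. These 3 genes are among the 4 of the 10 strongest bound RpL genes with no motif within 100 bp of the summit. RpL7, the strongest, held CACGTG there.
RpL13A (chr3R:5624374-5624473, plus strand): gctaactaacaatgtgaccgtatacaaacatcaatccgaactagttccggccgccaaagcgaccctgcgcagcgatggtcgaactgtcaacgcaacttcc
RpL14 (chr3L:8600906-8601005, plus strand): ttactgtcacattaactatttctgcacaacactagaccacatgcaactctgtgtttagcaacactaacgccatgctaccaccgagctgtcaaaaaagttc
RpL34b (chr3R:9401227-9401326, minus strand): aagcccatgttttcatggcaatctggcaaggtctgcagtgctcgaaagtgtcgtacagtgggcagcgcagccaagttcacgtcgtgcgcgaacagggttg
The summits lay 65 bases upstream of the RpL13A start site, 28 bases upstream of that of RpL14 and 71 bases upstream of that of RpL34b, inside the printed stretches.

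The strongest RpL peak was the one at RpL7, which encodes a protein of the subunit body that contacts ribosomal RNA. Its summit had a signal of 282 in replicate 3 (rank 84) and 339 in replicate 4 (rank 44). The pooled summit had a signal of 619 (rank 53). It lay 44 bp upstream of the nearer of the gene's 2 start sites, inside the annotated span of the gene. RpL13A, whose mammalian counterpart also regulates translation of inflammatory mRNAs, had 250.1 in replicate 3 (rank 120) and 290.5 in replicate 4 (rank 72), and 532 in the pool (rank 80). Both genes were thus among the strongest 120 candidates of either replicate. RpL14 had 227 in replicate 3 (rank 148) and 266 in replicate 4 (rank 84), and 493 in the pool, the third highest of the RpL genes. RpL13 had 214 in replicate 3 (rank 173) and 256 in replicate 4 (rank 89), and 472 in the pool (rank 113). RpL34b, 1 of 2 genes for RpL34, had 243 in replicate 3 (rank 126) and 219 in replicate 4 (rank 138), and 459.7 in the pool (rank 119). RpL34b differed from the 4 genes above it in having the better rank in replicate 3.

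RpL23A encodes the protein at the tunnel exit to which the signal recognition particle and nascent-chain factors dock, and it had 204 in replicate 3 (rank 199), 254 in replicate 4 (rank 91) and 453 in the pool (rank 126). RpL28 had 198 in replicate 3 (rank 220), 254 in replicate 4 (rank 92) and 441 in the pool (rank 133). RpL24, which forms a bridge between the subunits, had 207 in replicate 3 (rank 190), 209 in replicate 4 (rank 152) and 431 in the pool (rank 145). These genes kept ranks within the strongest 220 candidates of both replicates. RpL11, a partner of 5S RNA, had 209.9 in replicate 3 (rank 184), 216 in replicate 4 (rank 141) and 416 in the pool (rank 155). It too ranked within the strongest 220 of both.

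**Figure D2:**
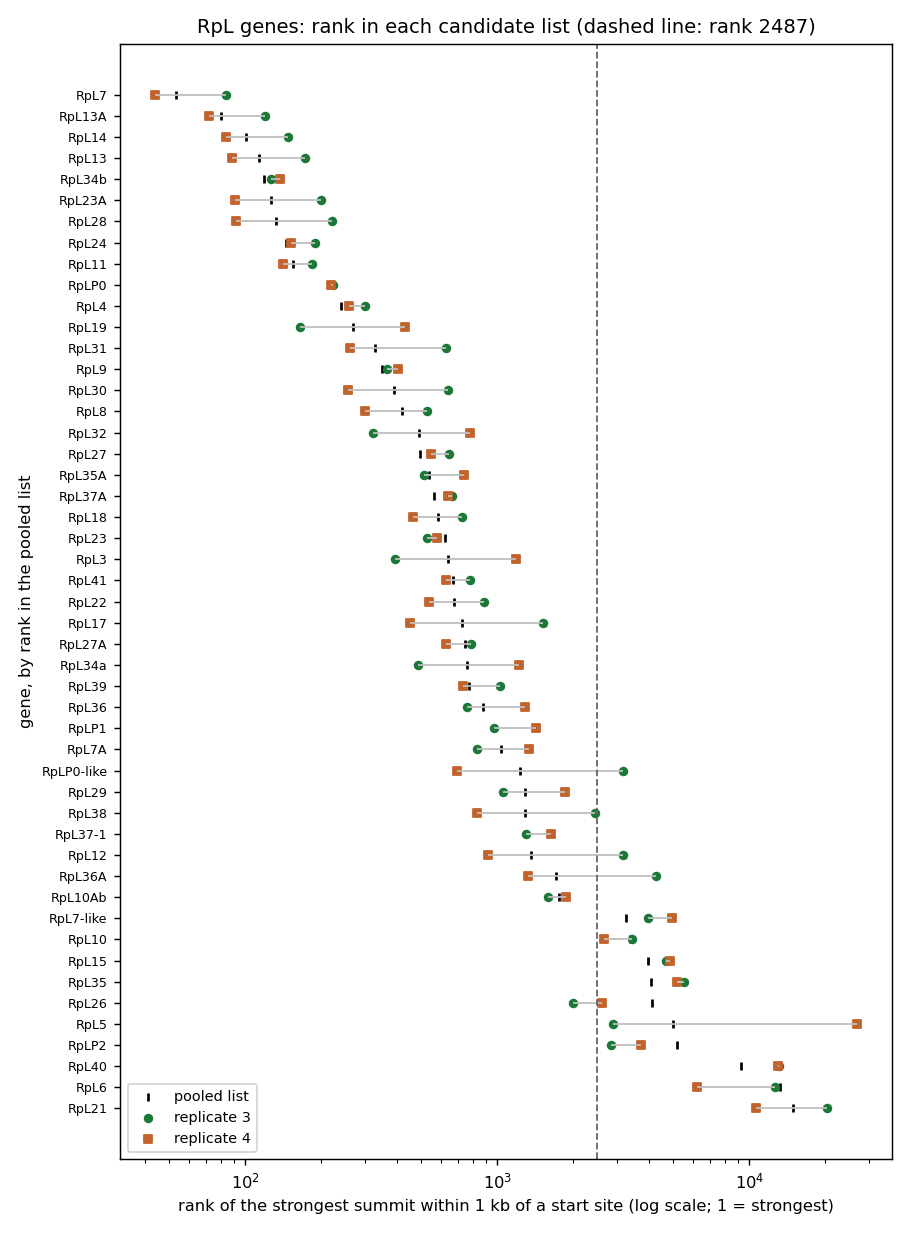
Rank of the strongest summit within 1 kb of 49 RpL genes with a pooled candidate (log axis, rank 1 is the strongest) in the pooled list, replicate 3 and replicate 4, with genes ordered by pooled rank and a dashed line at rank 2487. The 39 bound genes plotted stand above the others, and RpLP0-like shows a wide gap between the replicates.

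Over the 40 bound RpL genes the median pooled signal was 243 and the median pooled rank 550, against 246 and 537 for the bound RpS genes and 159 and 1277 for the other 1587 bound protein-coding genes. Of the 40, 19 ranked within the strongest 500 pooled candidates, and 34 had a signal above the median of the thresholded list. The median rank was 578 in replicate 3 and 541 in replicate 4. The thresholded list was made from both replicates, so these ranks describe the bound genes and are no separate support for them. Counting only genes with a summit among the strongest 2487 candidates of both replicates gave 37 RpL genes, beside 7.6% of all protein-coding genes. The other 3, RpL12, RpL36A and RpLP0-like, fell outside the strongest 2487 in replicate 3 alone.

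A candidate summit within 100 bp of the thresholded one was present in both replicates for 39 of the 40 bound RpL genes. The exception was RpL34a, whose strongest summit in replicate 4 lay 168 bp upstream of the start site while the pooled one lay 38 bp upstream. Across those 39 genes the signals of the replicates had a Spearman correlation of 0.782 and a Pearson correlation of 0.753 on the log2 scale, given as a description because the lists share 1 control. Over 2302 thresholded peaks matched in the same way these were 0.469 and 0.573. Of the 40 genes, 26 had ranks within 2-fold of each other, 25 ranked better in replicate 4 and 15 in replicate 3. The widest gap was at RpLP0-like, at rank 3157 in replicate 3 and 695 in replicate 4, a ratio of 4.54.

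By role, 3 of the 4 genes for the stalk and its base were bound. RpLP0, the protein that anchors the stalk, had 197 in replicate 3 (rank 223), 182 in replicate 4 (rank 218) and 363 in the pool (rank 214). RpLP1, an acidic stalk protein, had 100.8 in replicate 3 (rank 971), 78.7 in replicate 4 (rank 1421) and 185 in the pool (rank 972). RpL12, at the stalk base, had 56.6 in replicate 3 (rank 3169), 96.9 in replicate 4 (rank 916) and 155 in the pool (rank 1366). The stalk genes thus spanned the range from strong to weak peaks, and the remaining acidic protein gene, RpLP2, was not bound. Its candidate summit lay 13 bp from the start site with a pooled signal of 75.9 (rank 5188), and its strongest summits ranked 2823 in replicate 3 and 3730 in replicate 4.

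The 2 proteins that carry 5S RNA into the subunit differed in their peaks. RpL11 was bound, as given above, whereas RpL5, its partner, had 59.9 in replicate 3 (rank 2869), 17.8 in replicate 4 (rank 26862) and 77.6 in the pool (rank 4973). Near the peptidyl transferase centre, RpL8 had 135 in replicate 3 (rank 528), 159.5 in replicate 4 (rank 300) and 276 in the pool (rank 419). RpL3 had 152 in replicate 3 (rank 394), 86.7 in replicate 4 (rank 1185) and 226 in the pool (rank 638). Both were bound, and the last gene of this group was not. RpL10, which joins the subunit late in its assembly, had 54.3 in replicate 3 (rank 3411), 57.1 in replicate 4 (rank 2651) and 97.2 in the pool (rank 3362), 11 bp from its start site.

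Of the 8 genes for proteins of the exit tunnel and its mouth, 6 were bound. After RpL23A, their pooled ranks were 241 for RpL4 and 268 for RpL19, then 327 for RpL31, 726 for RpL17 and 770 for RpL39. RpL4 and RpL17 line the narrow part of the tunnel and RpL39 sits near its exit. The unbound pair was RpL26 and RpL35. RpL26 had 71.3 in replicate 3 (rank 1997, 96 bp downstream of the start site) and 57.6 in replicate 4 (rank 2608, 631 bp upstream), and 87.1 in the pool (rank 4100). RpL35 had 42.5 in replicate 3 (rank 5512), 39.8 in replicate 4 (rank 5190) and 87.1 in the pool (rank 4094), 502 bp upstream. RpL26 reached the strongest 2487 candidates in replicate 3 but RpL35 in neither. RpL40, made as a fusion with ubiquitin, was not bound, with 27.4 in replicate 3 (rank 13184), 25.4 in replicate 4 (rank 13016) and 54.9 in the pool (rank 9237). Of the 36 genes outside these groups, 28 were bound. The shares of the stalk and tunnel groups and of these 36 genes lay near the 74.1% of all RpL genes.

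Even the weakest bound members stood above the threshold by some margin. RpL10Ab had 79.7 in replicate 3 (rank 1587), 68.4 in replicate 4 (rank 1882) and 137 in the pool (rank 1765). RpL36A had 49.0 in replicate 3 (rank 4262), 81.8 in replicate 4 (rank 1326) and 139 in the pool (rank 1717). Next came RpL12 at pooled rank 1366, RpL37-1 at 1300 and RpL38 at 1291. RpL38, whose mouse counterpart is known for its part in translating Hox mRNAs, ranked 2447 in replicate 3 and 829 in replicate 4, and RpL37-1 ranked 1297 and 1635. The lowest bound signal of 137 stood above the lowest of the thresholded list, 114, and the next member below it had 99.5. No RpL gene lay between pooled ranks 1765 and 3234.

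Of the 14 RpL genes that were not bound, 10 still had a pooled candidate within 1 kb, so 50 of 54 had one, beside 57.5% of all protein-coding genes. In 6 of the 10 the candidate summit lay within 130 bp of the start site. Besides RpL10, RpL5, RpLP2 and RpL40 these were RpL15, with a pooled signal of 88.6 (rank 3979, and 4685 and 4848 in replicates 3 and 4), and RpL6, with 45.2 (rank 13194, and 12656 and 6215). The pooled candidates of the remaining 4 genes lay farther out. RpL21 had its pooled summit 627 bp upstream with a signal of 42.2 (rank 14917). Its strongest summits in the replicates lay elsewhere, 866 bp upstream in replicate 3 (rank 20355) and 54 bp downstream of the start site in replicate 4 (rank 10608). Candidates at unbound RpL genes therefore ran from rank 3234 down to rank 14917.

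The 14 genes in 7 paralogue groups included 9 bound ones, and 31 of the 40 genes with no such paralogue were bound. Both counts can be read beside 74.1% of all RpL genes and 11.9% of all protein-coding genes, and their difference was not tested. In 5 groups 1 copy was bound and the other was not. RpL7 was bound and RpL7-like, related to a yeast assembly factor, was not, with a candidate 457 bp upstream at pooled rank 3234 (3959 in replicate 3 and 4933 in replicate 4). RpL10Ab was bound, whereas RpL10Aa had no candidate in any list. RpL22, whose fly protein carries an extension related to histone H1, was bound at pooled rank 673 (883 in replicate 3 and 536 in replicate 4). Its testis-enriched paralogue RpL22-like had only a candidate of rank 29554 in replicate 4, 689 bp downstream of the start site. The separation within these groups was thus between a bound gene and a copy with a weak candidate or none. RpL24 was bound, and RpL24-like, related to a yeast factor of 60S assembly, had only a candidate of rank 18636 in replicate 3. RpL37-1 was bound, and RpL37-2 had no candidate in any list.

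In the other 2 groups both copies were bound, although the call of RpLP0-like depended on the rule. RpL34b ranked 119 in the pool and RpL34a 756, with 140.4 for RpL34a in replicate 3 (rank 487) and 85.3 in replicate 4 (rank 1217). RpLP0 ranked 214, and RpLP0-like, related to a yeast assembly factor that resembles the stalk anchor, ranked 1230 with a signal of 163. Its summit lay 5 bp from the start of 14-3-3zeta and 82 bp from its own, and the gene was not counted when only the nearest start site was kept or when the strongest 2487 candidates of both replicates were required. Of the 4 genes with names in -like, RpLP0-like was thus the only one counted as bound. The sources do not say how reads shared by near-identical copies were placed, so values of paralogues are less certain than the rest.

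By chromosome arm, bound RpL genes numbered 9 of 13 on 2L, 11 of 14 on 2R, 7 of 10 on 3L, 8 of 11 on 3R and 5 of 6 on X. These counts can be read beside 40 of 54 for the whole list and 11.9% of all protein-coding genes. RpL genes without a thresholded summit were therefore found on every one of these arms. The number of pooled candidates within 50 kb of a gene's middle was 30 in the median over the bound RpL genes (range 7 to 72). Of the 6 RpL genes with 7 or fewer, 4 were not bound, RpL5, RpL10, RpL15 and RpL21, and 2 were, RpL7A and RpL38. The limit of 7 is the lowest number at a bound RpL gene, so it comes from these same values. The bound share of all protein-coding genes at this density was not counted. Thresholded peaks are themselves among the pooled candidates, so the number and the call are not independent. RpL5 and RpL15 had 6 each. The part of this local density in the missing calls was not tested.

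**Figure D3:**
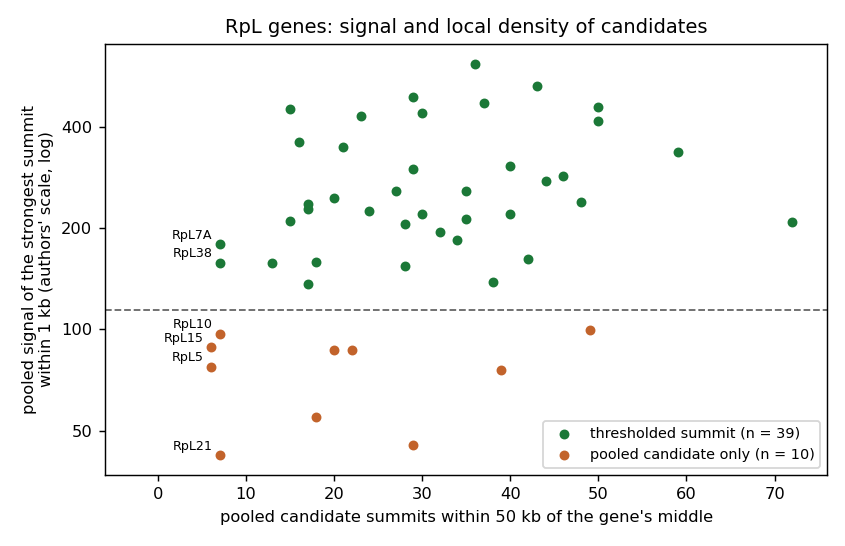
Pooled signal of the strongest summit within 1 kb of each RpL gene (authors' scale, log axis) against the number of pooled candidate summits within 50 kb, with the dashed line at the lowest thresholded signal of 114. RpL5, RpL10, RpL15 and RpL21 lie below the line at 7 or fewer candidates, and RpL7A and RpL38 lie above it at 7.

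Summits at RpL genes lay almost on the start site. The median distance was 22 bp over the 40 bound genes, with an interquartile range of 9.75 to 37.2 bp. Within 50 bp lay 35 of them (87.5%), and within 100 bp 39. As a share of all 54 RpL genes those 39 can be read beside 4.57% of all protein-coding genes with a strongest summit that close. The bound RpS genes had a median distance of 16 bp. The other 1587 bound genes had a median of 156 bp, with 19.7% within 50 bp and 36.1% within 100 bp. A summit within 1 kb of several genes counts for each of them, so these 1587 include neighbours of genes nearer to the summit. Keeping only the nearest start site left 1211 of the 1653 bound protein-coding genes, but 38 of the 40 RpL genes. Distances of the other genes under that rule were not compared. RpL summits were upstream of the nearest start site of their gene at 24 of the 40 genes, or 60%, against 76.6% of the other bound genes. Such a summit can lie inside a gene that has another start site farther upstream. This was so at RpL7, RpL13, RpLP0, RpL18 and RpL36. The difference between RpL genes and other bound genes was not tested.

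**Figure D4:**
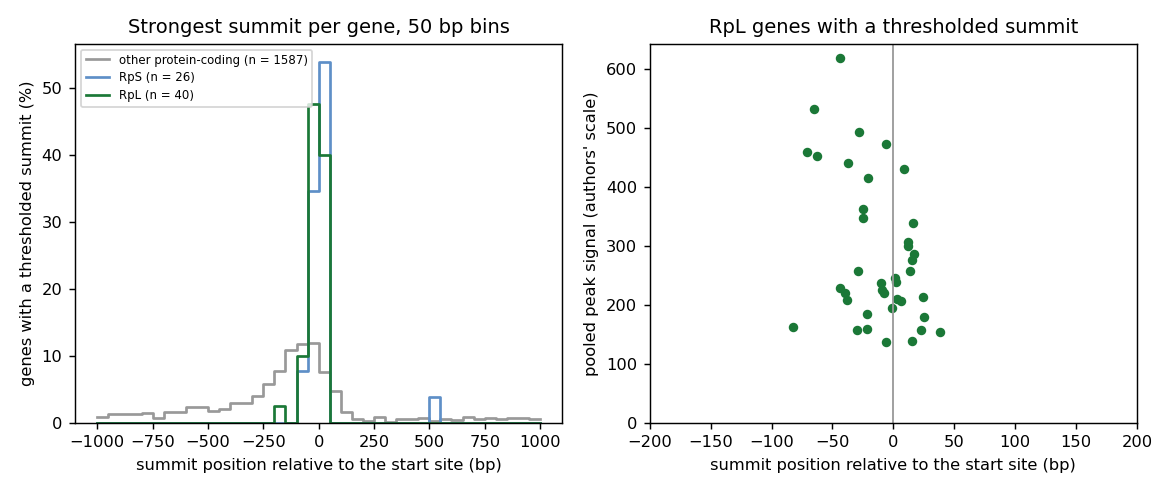
Left, share of bound genes (percent) by position of the strongest summit relative to the start site in 50 bp bins, for RpL, RpS and other protein-coding genes, and right, pooled signal against position for 39 bound RpL genes. The RpL summits crowd at the start site with a median distance of 22 bp.

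Most bound RpL genes had 1 thresholded summit within 1 kb, and only RpL34b, with 3 (ranks 119, 1481 and 2367), and RpL8, with 2 (ranks 419 and 2278), had more. Another gene sat close by in many cases. A protein-coding start site on the opposite strand within 500 bp upstream was present at 22 of 54 RpL genes (40.7%), beside 27.4% of all protein-coding genes. Among bound RpL genes it was 20 of 40 (50%), among the unbound ones 2 of 14 (14.3%), and among other bound genes 650 of 1587 (41.0%). The summit of RpL7 lay 82 bp from the start of Ripalpha on the opposite strand. The summit of RpL13 lay 95 bp from the start of Dref, which encodes a factor that binds the replication-related element. That of RpL14 lay 99 bp from Nelf-E, a subunit of the complex that holds paused polymerase. In these pairs the peak cannot be assigned to 1 gene by distance alone. At 38 of the 40 genes the RpL start site was the nearest to the summit. The exceptions included RpLP0-like, at 82 bp against 5 bp for 14-3-3zeta, an adaptor that binds phosphorylated proteins.

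Many start sites of RpL genes lay in a run of pyrimidines, a feature that the choice of genes did not use. Each line below gives the 21 bases centred on the annotated start site nearest to the gene's summit, or the only one, 5′ to 3′ on the gene's strand from the same reference, with the longest pyrimidine run in capitals. They were chosen after their values were seen, to show long runs at bound genes (RpL14, RpL8, RpL37-1, RpL9), shorter ones at bound genes (RpL22, RpL17), the start site of RpL27A nearest to its summit, which lies in another element named later, long ones at genes not bound (RpL40, RpL6) and a short one at a paralogue that was not bound (RpL24-like).
RpL14 (chr3L:8600996-8601016, plus strand): aaaaaagTTCTTTCCTTCTCT
RpL8 (chr3L:2587446-2587466, plus strand): gTCTTCCTCTTTTCTTTTCTT
RpL37-1 (chrX:15139357-15139377, minus strand): gcgTCTCTTCTTCTTCCCTTT
RpL9 (chr2L:11004143-11004163, minus strand): attaaaTTTCCCTTCTTTTCT
RpL22 (chrX:765120-765140, minus strand): gcttccgccttctgTTCTTTT
RpL17 (chrX:6744228-6744248, minus strand): tgaTTTCCagcactagaactg
RpL27A (chr2L:4458334-4458354, minus strand): CCgggcggtcacactgctaca
RpL40 (chr2L:4227689-4227709, plus strand): ggcggccacaCTCTCTTTTCC
RpL6 (chr3R:31596194-31596214, minus strand): tctagacataaCCTTCCTTTT
RpL24-like (chr3R:11431572-11431592, minus strand): gactgccgatacaTTTTCata
Because the lines were picked in this way, they are examples and do not compare bound with unbound genes. RpL27A has other start sites, and over all of them its longest run was 11 bases. Over all its start sites the longest run was 7 bases at RpL22 and 6 at RpL17, and at RpL11, among the 10 strongest genes, it was 4.

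A run of at least 10 pyrimidines within these 21 bases, at any start site, was present in 30 of 54 RpL genes (55.6%), beside 1.43% of all protein-coding genes. It was present in 47.4% of the RpS genes and in 0 of 47 mRpL genes. Among RpL genes it was present in 24 of the 40 bound and 6 of the 14 not bound, so it was found in both sets. Of the 152 genes with such a run that are neither RpL nor RpS genes, 30 were bound (19.7%). The letters CTTT on the gene's strand, with the C within 2 bases of the start site, were present in 10 RpL genes (18.5%), beside 3.28% of all protein-coding genes. With the C within 5 bases there were 33 (61.1%), beside 8.07%. RpL genes with more start sites had more chances to match, with a mean of 1.70 start sites against 1.41 over all genes. Among genes with 1 start site, the run of at least 10 was present in 15 of 29 RpL genes (51.7%), against 0.771% of all 10246 such genes. CTTT with the C within 2 bases was present in 3 of these 29 (10.3%), against 2.19%. A shorter run of at least 8, at any start site, was present in 43 of 54 RpL genes, beside 4.61% of all protein-coding genes.

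Next the bases within 100 bp of each thresholded summit were searched for 6 motifs on both strands, none of which is contained in another and some of which, such as CACGTG, are palindromes. Sites are printed here with 9 bases to either side, in the gene's direction 5′ to 3′ and with the motif in capitals, because these 2 motifs were the ones most often found at RpL summits. The first 4 lines hold CACGTG and the last 4 hold TATCGATA, the core of the DNA replication-related element.
RpL7 (chr2L:10201011-10201034, plus strand): cgcgcgtgtCACGTGtgcacgcat
RpL24 (chr2L:13395161-13395184, minus strand): cgccttcggCACGTGgtggtattt
RpL8 (chr3L:2587511-2587534, plus strand): acggtaagcCACGTGctaaatttt
RpL37-1 (chrX:15139300-15139323, minus strand): gctagaagcCACGTGctaaatttg
RpL28 (chr3L:3223036-3223061, minus strand): cgaaatgctTATCGATAgttgccctg
RpL27 (chr3R:25685075-25685100, minus strand): gccactaagTATCGATAaaaagacga
RpL34a (chr3R:26059294-26059319, minus strand): ttttgaaatTATCGATAgcaattaat
RpL36A (chr2L:8042886-8042911, minus strand): acgaaaaccTATCGATAgcgcatggc
RpL37-1 was the 1 gene of the 40 whose window held both motifs.

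CACGTG, the E box that Enhancer of split proteins are known to bind, was within 100 bp of the summit at 7 of 40 bound RpL genes (17.5%), beside 5.48% of the 1187 distinct summit windows of other bound protein-coding genes. The share depended on the window, with 4 RpL genes (10%) beside 2.61% of other windows within 50 bp, and 12 (30%) beside 8.51% within 200 bp. The 7 within 100 bp were RpL7, RpL8, RpL11, RpL24, RpL29, RpL32 and RpL37-1. They included 3 of the 10 strongest RpL genes but also the weak RpL29 and RpL37-1. In the RpS windows the share was 7.69%. The site lay 33 bp from the summit at RpL7, 51 bp at RpL24 and 22 bp at RpL11, with a median of 34 bp over the 7. It was upstream of the start site nearest to the summit in 4 of the 7, at RpL7 inside the annotated span of the gene. At RpL8, RpL32 and RpL37-1 it lay 67, 51 and 55 bp downstream. A related site, CACGCG, was in 5 RpL windows (12.5%), beside 10.6%, a share near that of other genes, and in 8 (20%) beside 16% within 200 bp. CAGCTG, an E box bound by proneural activators, was in 0 of 40 RpL windows, beside 17.4%, and in 19.2% of RpS windows. Within 200 bp it was in 2 RpL windows (5%), those of RpL19 and RpLP0, beside 29.6%. The repeat GAGAGAG, bound by the GAGA factor, was also in 0, beside 10.8%, and in 0 RpS windows.

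TATCGATA was in 11 RpL windows (27.5%), beside 5.05% for other genes and 26.9% for RpS genes. Within 50 bp of the summit it was in 4 RpL windows (10%), beside 2.61% for other genes. It lay upstream of the start site nearest to the summit in 10 of the 11, although at RpL36 inside the annotated span of the gene. Over the 11 the median position was 54 bp upstream, and the median distance from the summit was 51 bp. At RpL36A it lay 10 bp downstream of the start site, next to the summit. The sequence GGTCACACT, part of the core-promoter element known as Motif 1, was in 5 (12.5%), beside 2.19%, at RpL7, RpL27A, RpL37A, RpLP0 and RpLP1. At RpL27A it covers the start site printed above. Of the 40 windows, 22 held at least 1 of the 6 motifs and 18 held none. The median pooled rank of those 18 was 559, beside 550 for all 40, which include them. By motif it was 419 for genes with CACGTG, 493 with CACGCG, 562 with GGTCACACT and 756 with TATCGATA. These differences were not tested. The GC content of the RpL windows was 42.9%, against 42.7% for other genes. A match describes letters in a window and no occupancy of a factor was read from it.

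**Figure D5:**
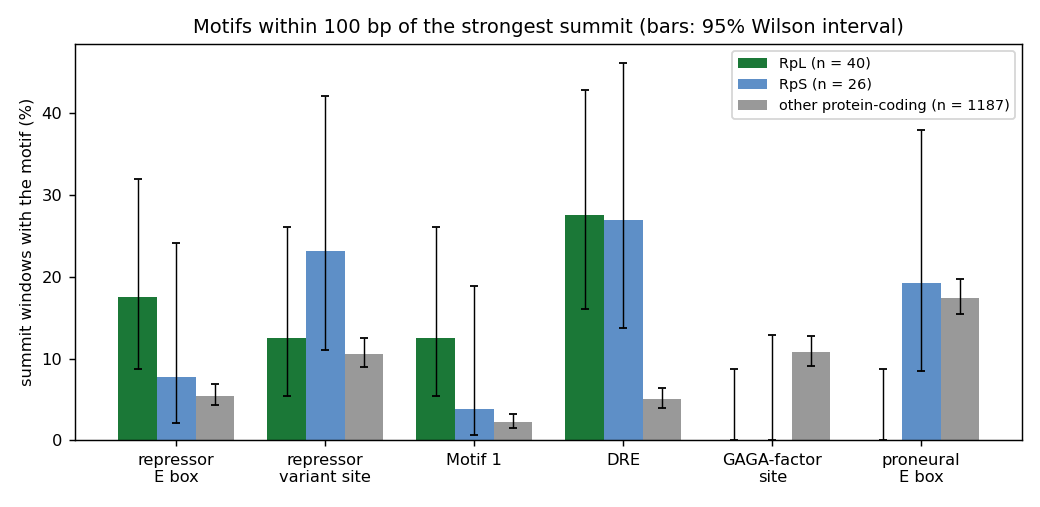
Share of summit windows (percent, 100 bp to either side) that hold each of the 6 motifs, for bound RpL, RpS and other protein-coding genes, with bars for the 95% Wilson interval. RpL windows reach 27.5% for the DRE core and 17.5% for the repressor E box, and stand at 0 for the GAGA-factor site and for the proneural E box, which 2 RpL genes hold within 200 bp.

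Many RpL genes carry small nucleolar RNA (snoRNA) genes, which guide modification of ribosomal RNA, on the same strand within their span. Such nested genes were annotated in 16 of 54 RpL genes (29.6%) and 31.6% of RpS genes, beside 0.602% of all protein-coding genes. Of the 16 hosts, 14 were bound and 2 were not, beside 74.1% of all RpL genes and 11.9% of all protein-coding genes. The difference between hosts and other RpL genes was not tested. RpL genes were also short, with a median span of 1315 bp against 2166 bp over all genes.

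The count of bound RpL genes moved little with the way a peak was assigned to a gene. It was 40 within 500 bp (beside 10% of all protein-coding genes) and 40 within 2 kb (15.0%). With only the most upstream start site it was 40 (10.3%), and with any overlap of a peak interval and the 1 kb windows it was 40 (12.5%). Keeping only the gene nearest to each summit gave 38 (8.68%), with RpLP0-like among those lost. The 1243 strongest thresholded peaks left 34 (5.99%), without RpL10Ab, RpL12, RpL29, RpL36A, RpL37-1 and RpL38. Each replicate alone, taken as its strongest 2487 candidates, gave 40 for replicate 4 (11.5%) and 38 for replicate 3 (12.2%). In replicate 3, RpL12, RpL36A and RpLP0-like were missing and RpL26 was added.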

How the data were processed

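The samples were embryos in 2 biological replicates, numbered 3 and 4. Per the text files deposited beside the lists, candidates were called for replicates 3 and 4 separately and for their pooled reads, always with 1 control alignment, on dm6, and the thresholded list came from all 3 candidate lists by an irreproducible discovery rate procedure. The sources used here do not name the aligner, the caller or the threshold. The read depth is unknown, so intervals for depth are not given. The deposited signal of each peak ranks peaks within a list. The deposited −log10 q was the same in all 2487 thresholded peaks and was not used to rank. Summits are the peak start plus the offset (another deposited column), and coordinates are 1-based on dm6.

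Start sites came from Ensembl release 115 and sequences from the RefSeq genome. The strongest thresholded summit within 1 kb of any start site stood for a gene. Replicate summits were matched within 100 bp. Values are given for the 10 strongest and 5 weakest bound genes, every gene not bound and every paralogue. Of the RpL genes, 1 is included in the counts but is not reported by name here or plotted as a gene. Role groups follow the place of each protein in the ribosome. The RpL genes, lists and motifs were chosen with earlier results of these data known. The run of at least 10 pyrimidines was chosen after the data were seen. No test was run, with 1 group of 2 samples. The overlap code was tested on simulated data. Tables were handled in pandas 2.3.3 under Python 3.11.15, statistics used scipy 1.17.1 with numpy 2.4.6, and plots used matplotlib 3.10.9.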

Additional observations from a re-analysis of the deposited data

How the results depend on the processing

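Of 76 values recomputed under another setting, 65 stayed within the limits set for a change and 11 did not. The limit was a factor of 1.5 for counts and the 95% Wilson interval for shares, which is wide with 40 windows. Shares of RpL windows inside that interval still moved by over 1.5 times for CACGTG, from 17.5% to 10% within 50 bp and 30% within 200 bp, and for CACGCG, from 12.5% to 20% within 200 bp. CAGCTG went from 0 to 5% within 200 bp. The bound mRpL genes were 10 at 2 kb and 3 when only the nearest gene was kept. The bound 60S assembly factors were 2 with the nearest gene and ranged from 4 to 7 with either replicate left out. All bound protein-coding genes numbered 835 with the 1243 strongest thresholded peaks. The median distance of RpL summits was 23.5 bp from the most upstream start site. It ranged from 18 to 20 bp with either replicate left out, with summits then taken from the other replicate's own list. These medians count among the 11, although each changed by less than a factor of 1.5. The limits for medians and correlations are not given here. TATCGATA was in 10% of RpL windows when these were narrowed to 50 bp on either side of the summit (2.61% of other windows), and CTTT was at 33 RpL genes when the C could lie within 5 bases. The 2 further choices, which were made after seeing the data, were a shorter pyrimidine run of at least 8 (43 of 54 RpL genes, beside 4.61% of all genes) and windows of other genes limited to summits within 200 bp of a start site, where TATCGATA was in 6.58%. No paired analysis was possible because both samples belong to 1 group. Read depth is unknown, so a missing thresholded summit does not show that a gene lacked binding.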

Other observations

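The peak at RpL7A, 25 bp downstream of its start site and at pooled rank 1033, also lay within 1 kb of dx, which encodes a regulator of Notch signalling, at 768 bp. A single summit therefore counts for both genes at a distance of 1 kb. RpL34a lies near the Enhancer of split complex itself, and its summit was 18297 bp from the nearest E(spl) gene and 9394 bp from gro, which encodes the corepressor of these proteins.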
